A study of Mus musculus with 20 samples.

Results

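The 46 genes described here encode the semaphorins, plexins, Slits, Robos, netrins and netrin receptors of the mouse, and they were taken by symbol from the 55866 genes of the count table. They divide into 27 ligand genes (20 semaphorins, 3 Slits and 4 netrins) and 19 receptor genes (9 plexins, 4 Robos and 6 netrin receptors, which are Dcc, Neo1 and Unc5a to Unc5d). Class 4, 5, 6 and 7 semaphorins are bound to the membrane and can also act as receptors, and they are counted with the ligands.

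These proteins were first studied as cues that steer growing axons, and the same ligands and receptors steer blood vessels. Semaphorins signal through plexins, and most class 3 semaphorins need neuropilin co-receptors. Slits bind Robo receptors, and netrins bind Dcc, Neogenin (Neo1) and the Unc5 family. In endothelial cells, Plxnd1 is the receptor through which Sema3e repels vessels, Robo4 is a Robo found mainly in endothelium, and Unc5b marks sprouting tip cells and arteries. Macrophages and tumor cells carry other members, such as Plxnb2, Plxnc1, Sema4a and Sema4d.

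The 10 tumors were orthotopic Py8119 murine mammary carcinomas grown in female C57BL/6J RiboTag EC mice (Rpl22 HA/HA x Cdh5CreERT2). In these mice tamoxifen, given at 75 mg/kg for 5 days at an age of 3 weeks, puts an HA tag on Rpl22, a ribosomal protein, wherever the Cdh5 promoter drives Cre. Tumor cells were implanted at 8 weeks. Of the mice, 5 then received the anti-Notch4 antibody 6-3-A6 and 5 the control mouse IgG (25 mg/kg, 2 times a week, 10 days), starting at a tumor volume given as 30 mm3 in the protocol and 50 mm3 in the design text. All mice carried the tag and had received tamoxifen. The homogenate of each tumor (input) and the anti-HA immunoprecipitate (IP), which holds the mRNA on tagged endothelial ribosomes, were sequenced, which gave 20 libraries of single 100 bp reads.

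The libraries held 11881214 to 26728205 counts on genes. The IP was rich in endothelial mRNA: each of 17 endothelial markers had a higher level in IP (log2 fold change 3.16 to 5.41), with Cdh5 at 4.36 and Pecam1 at 4.12. Macrophage mRNA remained in the IP, where the summed level of 13 macrophage markers was 3401 to 8945 CPM in 6-3-A6 and 4747 to 7817 CPM in control IgG. The endothelial yield differed between IPs of the same group, from 1498 to 6752 summed CPM in control IgG and from 1171 to 6029 in 6-3-A6. CPM is edgeR's count relative to the TMM-scaled library total. The library of 6-3-A6 input 4 stood apart from the other inputs: its correlation with the median of the inputs was 0.899 (the other 9 inputs, 0.960 to 0.990), and its genes with spans of 200000 bases or more were higher by 0.52 on the log2 scale. Several guidance genes are longer than this.

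Guidance genes spanned several orders of magnitude in the tumors. Per kilobase of exon, the highest mean levels in the control IgG inputs were those of Plxnb2 (42.2 ± 9.72 CPM per kb, SD, n = 5), Sema7a (27.9 ± 5.96), Ntn1 (22.9 ± 3.50), Ntn4 (20.1 ± 3.02) and Plxnd1 (19.7 ± 1.77). In the control IgG IPs the order was Sema7a (85.3 ± 39.5 CPM per kb), Plxnd1 (52.9 ± 19.2), Plxnb2 (30.2 ± 9.56), Robo4 (27.0 ± 15.3) and Sema3f (25.8 ± 14.1). In both orders the ranges of mean ± SD of neighbors overlap. The gene spans counted include introns, so these levels per exon length are approximate. At the other end, Ntn5 had 0 counts in all 20 libraries, but 98.5% of its span is shared with the gene Sec1 on the opposite strand, so that it cannot be judged here. A count of 0 allows a level of up to 0.112 to 0.252 CPM (3 counts, counting error only). Robo3 was at 0 in 10 libraries, and Ntn3 never passed 0.431 CPM. Of the 46 members, 17 share no base of their span with another gene, among them Robo4, Plxnd1, Sema3f and Sema3g, whereas 33.8% of Neo1 is shared with the antisense gene Gm47271. In all, 38 members had enough counts to be tested in IP against input; Robo2, Robo3, Slit1, Sema4f, Sema5b, Unc5d, Ntn3 and Ntn5 did not.

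The first question is which guidance genes the tumor endothelium carries, asked by comparing IP with input over all 20 libraries. The Slit receptor Robo4 and the secreted ligands Sema3g and Sema3f were the members with the largest differences, and Neogenin and Netrin-4 had the lowest log2 fold changes among the members called. Dcc was lower than both but did not pass (-1.56, SE 0.63, adjusted p = 0.0529). It was higher in IP in 5 and lower in 5 of 10 tumors (median log2 ratio -0.04), with the lowest ratio, -5.50, in 6-3-A6 tumor 4. Of 38 members tested, 15 were higher in IP and 11 lower at an adjusted p under 0.05 (edgeR). Of all 13582 genes tested, 19.8% were higher and 21.4% lower, so the share of members called either way (26 of 38) can be set against 41.2% of all genes. Among 16 receptors 8 were higher and 2 lower, and among 22 ligands 7 were higher and 9 lower. The median log2 fold change was 0.43 for receptors and -0.31 for ligands, beside -0.05 for all genes. Input and IP of a tumor come from the same homogenate, so a lower level in IP is a smaller share of its RNA. Between treatments, a lower level in a bulk library cannot tell fewer cells of a type from less RNA in each cell. With each tumor as a block, 15 members were higher and 16 lower, the additions being Plxna1, Plxna3, Plxnc1, Slit2 and Slit3, beside 3414 higher and 3706 lower of all 13582 genes. Without tumor 4 of 6-3-A6, 15 members were higher and 10 lower, beside 3030 higher and 2769 lower of 13587 genes. Without tumor 3 of control IgG, 13 were higher and 5 lower (2345 higher and 2444 lower of 13660 genes). The lower members numbered 5 without tumor 1 of 6-3-A6 (2349 higher and 2433 lower of 13591 genes) and 7 without its tumor 3 (2363 higher and 2390 lower of 13573 genes). The calls of Plxna4, Plxnb1, Sema6a, Ntn1, Plxnb2, Sema3b, Sema3e, Sema4a, Sema4d and Sema5a were lost in at least 1 of 16 alternative settings (other tools or filters, or a tumor left out), and those of the other 16 members held in all of them.

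**Figure D1:**
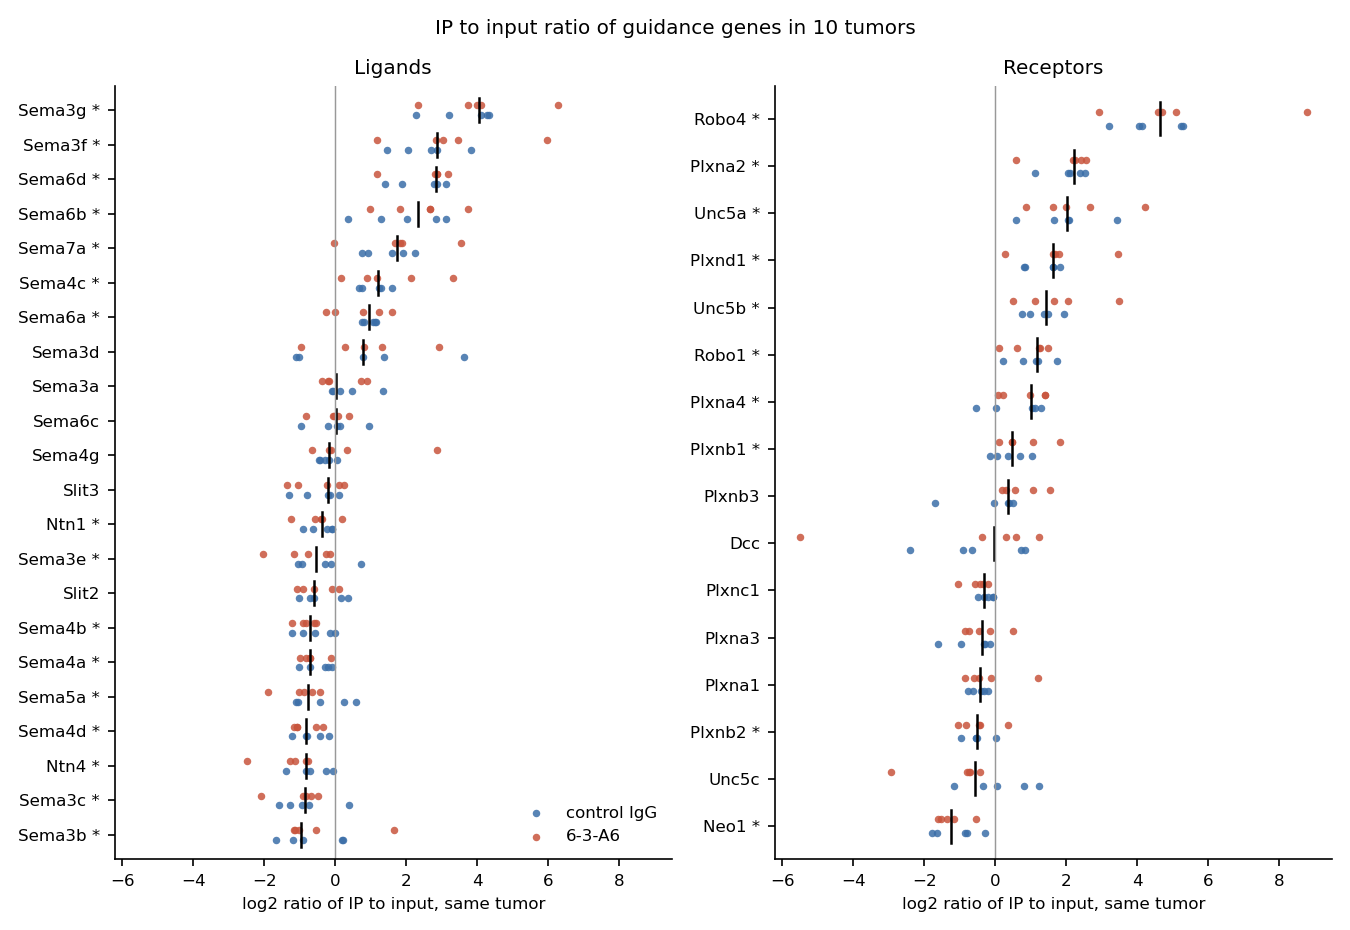
The log2 ratio of IP to input CPM (horizontal axis) is shown for each of the 38 members tested, with 1 point per tumor (5 control IgG, 5 6-3-A6), a black tick at the median of 10 tumors and an asterisk for an adjusted p under 0.05. Robo4 lies to the right of 0 in all 10 tumors, from 2.91 to 8.77, and Neo1 to the left in all 10, from -1.78 to -0.28.

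Robo4 in control IgG tumors 1 to 5 measured 6.08, 6.70, 5.50, 5.41 and 5.22 CPM in input and 235, 121, 220.4, 50.7 and 89.0 CPM in IP. Robo4 in 6-3-A6 tumors 1 to 5 measured 6.87, 4.79, 4.74, 0.364 and 5.99 CPM in input and 182, 36.8, 164, 209 and 147 CPM in IP. The lowest IP exceeded the highest input, and the log2 fold change was 4.75 (SE 0.37, adjusted p = 1.61e-09). The largest of the 10 tumor ratios, 8.77 on the log2 scale, rests on 4 counts in 6-3-A6 input 4. Plxnd1 read 147, 163, 142, 128 and 137 CPM in control IgG inputs 1 to 5, against 518, 503, 436, 227 and 246 CPM in the IPs of those tumors. Plxnd1 read 136, 119, 121, 38.7 and 109 CPM in 6-3-A6 inputs 1 to 5, against 436, 144, 371, 424 and 379 CPM in their IPs. Plxnd1, the plexin of class 3 semaphorins on vessels, was higher in IP in 10 of 10 tumors, with a log2 fold change of 1.52 (SE 0.21, adjusted p = 9.30e-06). IP library 2 of 6-3-A6, at 144 CPM, lay within the range of the inputs. The Unc5b level was 74.5, 59.9, 42.0, 44.9 and 45.3 CPM in control IgG inputs 1 to 5 and 207, 155, 162, 76.4 and 89.9 CPM in the IPs. For 6-3-A6, Unc5b was at 43.4, 44.4, 38.5, 13.7 and 41.6 CPM in inputs 1 to 5 and at 136, 62.9, 158, 155 and 90.2 CPM in the IPs. Unc5b, a netrin receptor of sprouting vessels, was higher in 10 of 10 tumors, with a log2 fold change of 1.48 (SE 0.22, adjusted p = 1.76e-05).

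Plxna2 read 8.56, 11.6, 14.5, 9.32 and 8.95 CPM in control IgG inputs 1 to 5, against 49.6, 61.9, 62.8, 20.5 and 37.5 CPM in the IPs of those tumors. Plxna2 read 13.8, 14.4, 8.25, 8.92 and 8.14 CPM in 6-3-A6 inputs 1 to 5, against 63.1, 21.6, 49.3, 48.0 and 39.3 CPM in their IPs. Plxna2, a plexin that pairs with neuropilins and class 6 semaphorins, showed no overlap between IP and input and a log2 fold change of 2.01 (SE 0.21, adjusted p = 8.58e-08). Robo1 in control IgG tumors 1 to 5 measured 25.5, 22.7, 27.2, 28.6 and 29.4 CPM in input and 59.3, 75.8, 60.3, 33.2 and 50.9 CPM in IP. Robo1 in 6-3-A6 tumors 1 to 5 measured 22.8, 33.5, 22.1, 40.1 and 13.1 CPM in input and 55.0, 35.8, 61.7, 61.5 and 31.2 CPM in IP. Robo1, the broadly expressed Slit receptor, was higher in 10 of 10 tumors but by less, 0.89 (SE 0.19, adjusted p = 8.11e-04). The Plxnb1 level was 11.1, 16.9, 11.4, 14.6 and 12.5 CPM in control IgG inputs 1 to 5 and 23.0, 27.5, 14.8, 15.1 and 11.3 CPM in the IPs. For 6-3-A6, Plxnb1 was at 12.1, 12.3, 9.87, 3.73 and 8.68 CPM in inputs 1 to 5 and at 17, 13.4, 13.6, 13.6 and 18.2 CPM in the IPs. Plxnb1, the receptor of Sema4d, had a log2 fold change of 0.51 (SE 0.18, adjusted p = 0.0260) and was higher in 9 of 10 tumors. The other receptors called higher were Unc5a (2.37), from 3 to 9 counts per control IgG input, and Plxna4 (0.59). The calls of Plxnb1 and Plxna4 were lost when the tumors were limited to the 6 whose IP the study kept. Among the plexins, 4 of 9 were higher and 1, Plxnb2, was lower, beside 19.8% and 21.4% of all genes.

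**Figure D2:**
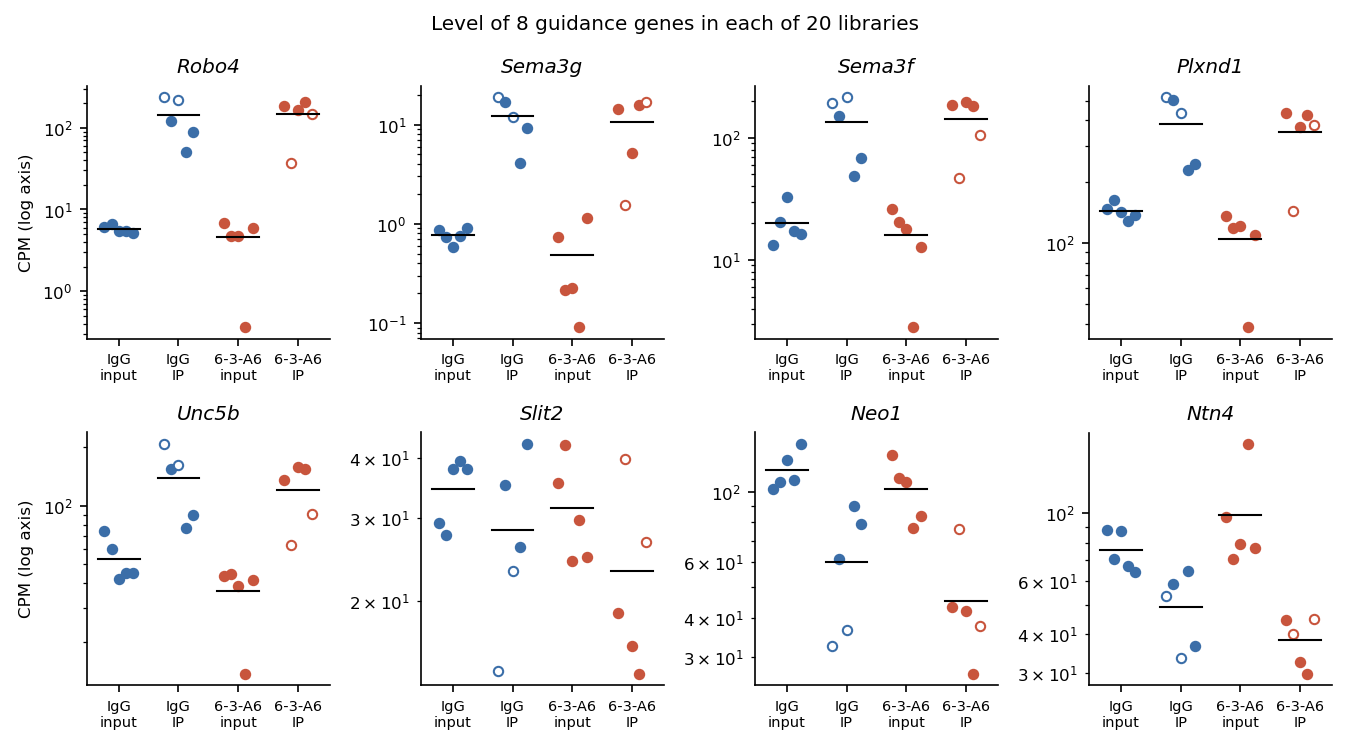
CPM on a log axis of 8 members in the 20 libraries, with 1 point per library (blue, control IgG; red, 6-3-A6), a line at the mean of 5 and open circles for IP libraries that the study left out. Robo4 and Sema3f separate the IPs from the inputs in both treatment groups, whereas Slit2 does not.

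The promoters of 4 members with higher levels in IP (Robo4, Sema3g, Plxnd1 and Unc5b) are printed as examples. Those of the 2 members with the lowest called fold changes (Neo1 and Ntn4) follow. Sema3f, Sema6d, Unc5a, Sema6b, Plxna2 and Sema7a had larger fold changes than Plxnd1 and Unc5b and are not printed. Each run is the 250 bases before the annotated start of transcription, on the strand of the gene, 5′ to 3′ (RefSeq, GRCm38.p6). The positions are chr9:37401722-37401971 (+) for Robo4, chr14:31217623-31217872 (+) for Sema3g, chr6:115995006-115995255 (-) for Plxnd1, chr10:60831582-60831831 (-) for Unc5b, chr9:59036442-59036691 (-) for Neo1 and chr10:93640799-93641048 (+) for Ntn4. Capitals mark exact matches on either strand to words of 6 letters: AGGAAG and CGGAAG (ETS factors), TGGGAA (RBPJ) and ACAATG and ACAAAG (SOX factors).
Robo4: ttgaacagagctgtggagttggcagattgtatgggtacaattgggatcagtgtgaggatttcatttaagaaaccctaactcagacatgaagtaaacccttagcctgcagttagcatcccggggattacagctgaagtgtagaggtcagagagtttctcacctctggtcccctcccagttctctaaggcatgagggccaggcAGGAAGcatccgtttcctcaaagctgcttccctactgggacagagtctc
Sema3g: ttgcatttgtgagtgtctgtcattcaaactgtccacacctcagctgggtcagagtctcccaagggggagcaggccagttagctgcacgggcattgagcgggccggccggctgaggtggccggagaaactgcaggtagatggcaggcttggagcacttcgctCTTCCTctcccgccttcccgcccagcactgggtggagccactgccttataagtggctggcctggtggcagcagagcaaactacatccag
Plxnd1: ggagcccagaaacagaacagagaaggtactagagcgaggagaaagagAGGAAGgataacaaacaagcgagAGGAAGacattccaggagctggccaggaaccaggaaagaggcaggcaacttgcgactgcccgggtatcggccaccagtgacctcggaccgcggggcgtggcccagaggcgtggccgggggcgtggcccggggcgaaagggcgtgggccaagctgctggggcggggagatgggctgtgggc
Unc5b: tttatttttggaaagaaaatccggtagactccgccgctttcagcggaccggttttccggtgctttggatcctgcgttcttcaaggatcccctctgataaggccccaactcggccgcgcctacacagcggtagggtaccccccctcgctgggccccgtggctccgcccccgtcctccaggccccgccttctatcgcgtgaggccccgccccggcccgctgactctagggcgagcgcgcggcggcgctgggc
Neo1: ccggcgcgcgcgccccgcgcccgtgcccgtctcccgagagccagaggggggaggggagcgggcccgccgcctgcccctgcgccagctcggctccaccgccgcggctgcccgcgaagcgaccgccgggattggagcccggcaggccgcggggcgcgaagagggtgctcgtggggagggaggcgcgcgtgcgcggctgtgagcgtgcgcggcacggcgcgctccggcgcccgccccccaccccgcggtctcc
Ntn4: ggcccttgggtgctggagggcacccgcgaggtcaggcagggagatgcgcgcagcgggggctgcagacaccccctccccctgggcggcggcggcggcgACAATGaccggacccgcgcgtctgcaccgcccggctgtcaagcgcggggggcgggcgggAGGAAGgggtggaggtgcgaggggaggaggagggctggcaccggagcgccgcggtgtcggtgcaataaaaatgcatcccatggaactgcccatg

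Robo4 has an AGGAAG from -49 to -44 of its start, and Sema3g its reverse complement, CTTCCT, from -89 to -84. Plxnd1 has AGGAAG at both -203 to -198 and -180 to -175. The words searched do not occur in the windows of Unc5b and Neo1. Ntn4, a gene lower in IP, has an AGGAAG from -94 to -89 and an ACAATG from -153 to -148. Of the 46 members, 37 have a window in the table. An ETS word occurs in 5 of 12 members higher in IP, in 5 of 9 members lower in IP and in 5 of 10 not called, beside 42.5% of 27025 genes and 39.2% of 32851 windows. The RBPJ word occurs in 1 of 12 higher and 4 of 9 lower members (24.1% of genes, 21.6% of windows), and a SOX word in 1 of 12 and 3 of 9 (28.2% of genes, 25.2% of windows). RBPJ and ETS words cannot share the same GGAA. A match describes the letters in these windows and not a bound site.

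Sema3g in control IgG tumors 1 to 5 measured 0.861, 0.736, 0.583, 0.748 and 0.902 CPM in input and 18.8, 16.9, 11.8, 4.06 and 9.30 CPM in IP. Sema3g in 6-3-A6 tumors 1 to 5 measured 0.732, 0.213, 0.223, 0.0910 and 1.15 CPM in input and 14.4, 1.53, 5.22, 15.6 and 16.9 CPM in IP. Sema3g, a secreted semaphorin of arterial endothelium, was close to the counting floor in input, where it had 7 to 16 counts in control IgG and 1 to 15 in 6-3-A6. The IPs did not overlap with the inputs, and the log2 fold change was 4.15 (SE 0.43, adjusted p = 1.12e-07). Sema3f read 13.4, 20.4, 32.4, 17.3 and 16.4 CPM in control IgG inputs 1 to 5, against 191, 149, 213, 48.2 and 68.3 CPM in the IPs of those tumors. Sema3f read 25.9, 20.5, 17.8, 2.82 and 12.7 CPM in 6-3-A6 inputs 1 to 5, against 187, 46.6, 197, 182 and 105 CPM in their IPs. Sema3f, which signals through Nrp2, had a log2 fold change of 2.89 (SE 0.34, adjusted p = 7.49e-07) with no overlap. The Sema7a level was 116, 108, 72.1, 73.6 and 90.6 CPM in control IgG inputs 1 to 5 and 439.6, 328, 346, 139 and 154 CPM in the IPs. For 6-3-A6, Sema7a was at 69.6, 80.0, 57.3, 23.2 and 80.8 CPM in inputs 1 to 5 and at 225, 78.7, 202, 269.8 and 298 CPM in the IPs. Sema7a, a lipid-anchored semaphorin that binds integrins and Plxnc1, was higher in 9 of 10 tumors, with a log2 fold change of 1.63 (SE 0.25, adjusted p = 2.48e-05).

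Among the transmembrane ligands, Sema6d was at 26.8 to 39.4 CPM in control IgG inputs and 92.5 to 251 CPM in the IPs, with a log2 fold change of 2.53 (SE 0.21, adjusted p = 3.52e-09). Sema6b followed with 2.18 (SE 0.25, adjusted p = 3.89e-07), and Sema4c, a ligand of Plxnb2, with 1.22 (SE 0.22, adjusted p = 1.52e-04). Neither Sema6d nor Sema6b overlapped between IP and input, while Sema4c did. Sema6a in control IgG tumors 1 to 5 measured 43.9, 57.3, 53.7, 44.5 and 44.3 CPM in input and 93.0, 128, 117, 75.9 and 77.3 CPM in IP. Sema6a in 6-3-A6 tumors 1 to 5 measured 52.7, 46.0, 46.0, 128 and 30.2 CPM in input and 124, 45.9, 78.7, 108 and 91.3 CPM in IP. Sema6a, a ligand of Plxna2 and Plxna4, was higher in 8 of 10 tumors, with a log2 fold change of 0.68 (SE 0.23, adjusted p = 0.0242). Its highest input, 128 CPM, was again 6-3-A6 input 4. Without that tumor the log2 fold change of Sema6a was 0.96 (adjusted p = 1.31e-04, edgeR). In the tumors whose IP the study kept, it was 0.58 (adjusted p = 0.142, edgeR).

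Netrins and their receptor Neogenin lay on the other side. Neo1 in control IgG tumors 1 to 5 measured 102, 108, 126, 109 and 142 CPM in input and 32.6, 61.5, 36.5, 90.1 and 79.1 CPM in IP. Neo1 in 6-3-A6 tumors 1 to 5 measured 131, 110.1, 107, 76.7 and 83.9 CPM in input and 43.2, 76.2, 42.0, 26.7 and 37.8 CPM in IP. Neo1 was lower in IP in 10 of 10 tumors, with a log2 fold change of -1.14 (SE 0.19, adjusted p = 7.55e-05), although control IgG IPs 4 and 5 overlapped with 6-3-A6 inputs 4 and 5. Ntn4 read 87.9, 70.5, 87.1, 67.1 and 64.2 CPM in control IgG inputs 1 to 5, against 53.5, 58.6, 33.3, 64.6 and 36.5 CPM in the IPs of those tumors. Ntn4 read 97.3, 70.5, 79.2, 168 and 76.8 CPM in 6-3-A6 inputs 1 to 5, against 44.7, 40.1, 32.6, 29.8 and 44.8 CPM in their IPs. Ntn4, a basement membrane netrin, was lower in 10 of 10 tumors, with a log2 fold change of -1.08 (SE 0.20, adjusted p = 2.40e-04). Its input 4 of 6-3-A6 was the highest of all. Without that tumor the log2 fold change of Ntn4 was -0.82 (adjusted p = 1.29e-04, edgeR). The Ntn1 level was 117, 155, 174, 135 and 137 CPM in control IgG inputs 1 to 5 and 100.2, 145, 93.1, 125 and 88.9 CPM in the IPs. For 6-3-A6, Ntn1 was at 169, 132, 109.6, 39.4 and 104 CPM in inputs 1 to 5 and at 71.9, 101, 74.0, 45.3 and 79.7 CPM in the IPs. Ntn1, the netrin bound by Dcc and Unc5b, was lower in 9 of 10 tumors, with a log2 fold change of -0.54 (SE 0.18, adjusted p = 0.0210).

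Of 18 semaphorins tested, 7 were higher and 7 lower in IP (19.8% and 21.4% of all genes), with a median log2 fold change of 0.01. Sema3c read 11.3, 7.28, 23.2, 14.1 and 14.8 CPM in control IgG inputs 1 to 5, against 4.58, 9.64, 7.62, 7.40 and 8.78 CPM in the IPs of those tumors. Sema3c read 14.2, 14.3, 8.25, 16.6 and 6.83 CPM in 6-3-A6 inputs 1 to 5, against 7.52, 8.88, 4.66, 3.83 and 4.86 CPM in their IPs. Sema3c, secreted by many mesenchymal and tumor cells, was lower in 9 of 10 tumors, with a log2 fold change of -1.03 (SE 0.22, adjusted p = 9.17e-04). Sema3e in control IgG tumors 1 to 5 measured 41.6, 27.7, 46.3, 43.0 and 34.5 CPM in input and 21.7, 45.7, 22.6, 35 and 31.6 CPM in IP. Sema3e in 6-3-A6 tumors 1 to 5 measured 46.0, 49.1, 27.3, 52.3 and 33.2 CPM in input and 20.7, 41.4, 15.9, 12.8 and 29.9 CPM in IP. Sema3e, the ligand of Plxnd1, was lower in 9 of 10 tumors, with a log2 fold change of -0.62 (SE 0.21, adjusted p = 0.0218), so that the ligand and its receptor differed in opposite directions between IP and input. The Sema4d level was 30.5, 31.6, 44.1, 37.9 and 50.1 CPM in control IgG inputs 1 to 5 and 17.2, 27.8, 18.8, 28.1 and 28.7 CPM in the IPs. For 6-3-A6, Sema4d was at 36.6, 31.3, 35.5, 21.4 and 81.4 CPM in inputs 1 to 5 and at 17.4, 13.8, 16.8, 14.8 and 64.4 CPM in the IPs. Sema4d, a semaphorin of lymphocytes and macrophages, was lower in 10 of 10 tumors, with a log2 fold change of -0.76 (SE 0.27, adjusted p = 0.0279). Library 5 of 6-3-A6 held the highest Sema4d in both fractions. The same library had the highest lymphoid marker sum of its group in both (240.5 CPM in input, 139 CPM in IP). Its macrophage marker sum was also the highest of its group in both (14446 CPM in input, 8945 CPM in IP). The part of these cells in the level was not tested.

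Sema4a in control IgG tumors 1 to 5 measured 46.6, 48.1, 37.3, 40.2 and 67.6 CPM in input and 38.3, 45.3, 18.6, 34.8 and 41.4 CPM in IP. Sema4a in 6-3-A6 tumors 1 to 5 measured 38.1, 35.3, 37.7, 17.6 and 70.0 CPM in input and 19.1, 21.5, 21.1, 16.1 and 42.7 CPM in IP. The Sema4b level was 77.1, 61.6, 54.8, 44.3 and 53.0 CPM in control IgG inputs 1 to 5 and 40.9, 56.3, 23.5, 44.4 and 35.5 CPM in the IPs. For 6-3-A6, Sema4b was at 59.4, 40.7, 41.0, 30.6 and 58.8 CPM in inputs 1 to 5 and at 25.6, 27.1, 22.0, 17.2 and 40.1 CPM in the IPs. Both are transmembrane class 4 semaphorins, and Sema4a (log2 fold change -0.64) and Sema4b (-0.74) were lower in 10 and 9 of 10 tumors. Sema5a read 70.8, 86.3, 87.7, 67.1 and 72.2 CPM in control IgG inputs 1 to 5, against 33.2, 103, 42.6, 101 and 53.2 CPM in the IPs of those tumors. Sema5a read 101, 87.3, 67.1, 69.9 and 52.6 CPM in 6-3-A6 inputs 1 to 5, against 49.5, 55.8, 36.8, 18.7 and 38.9 CPM in their IPs. Sema5a, a transmembrane semaphorin with thrombospondin repeats, was lower in 8 of 10 tumors, with a log2 fold change of -0.64 (SE 0.22, adjusted p = 0.0258). Plxnb2 in control IgG tumors 1 to 5 measured 199.95, 316, 357, 363 and 391 CPM in input and 137, 323, 182, 257 and 268 CPM in IP. Plxnb2 in 6-3-A6 tumors 1 to 5 measured 337, 297, 244, 88.2 and 276 CPM in input and 161, 216, 138, 114 and 205 CPM in IP. Plxnb2, the receptor of class 4 semaphorins on macrophages and epithelium, was lower in 8 of 10 tumors, with a log2 fold change of -0.59 (SE 0.20, adjusted p = 0.0204). Sema3b (highest 6.50 CPM) completed the list with -0.82. Of 12 macrophage markers tested, 8 were lower in IP, the median being -0.79, and of 10 fibroblast markers 3 were lower; their part in the lower members was not tested.

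The Slits did not pass the test. Slit2 in control IgG tumors 1 to 5 measured 29.2, 27.6, 37.9, 39.5 and 37.9 CPM in input and 14.3, 35.2, 23.2, 26.0 and 42.8 CPM in IP. Slit2 in 6-3-A6 tumors 1 to 5 measured 35.4, 42.7, 24.3, 29.7 and 24.8 CPM in input and 18.9, 39.9, 16.1, 14.1 and 26.7 CPM in IP. The Slit3 level was 19.4, 6.30, 4.50, 5.41 and 5.02 CPM in control IgG inputs 1 to 5 and 11.2, 5.65, 1.78, 4.70 and 5.41 CPM in the IPs. For 6-3-A6, Slit3 was at 6.25, 3.44, 3.62, 8.47 and 14.7 CPM in inputs 1 to 5 and at 6.69, 4.10, 3.09, 3.22 and 6.98 CPM in the IPs. The log2 fold change was -0.43 (SE 0.20, adjusted p = 0.0808) for Slit2 and -0.63 (SE 0.35, adjusted p = 0.144) for Slit3, each lower in 7 of 10 tumors. With each tumor as a block both passed, at -0.51 (adjusted p = 0.0156, edgeR) for Slit2 and -0.54 (adjusted p = 0.0346) for Slit3. Sema3a read 37.7, 26.3, 45.6, 44.9 and 41.3 CPM in control IgG inputs 1 to 5, against 52.5, 67.0, 50.2, 42.3 and 39.6 CPM in the IPs of those tumors. Sema3a read 44.5, 47.0, 22.3, 42.8 and 33.2 CPM in 6-3-A6 inputs 1 to 5, against 38.6, 41.5, 36.9, 33.2 and 61.9 CPM in their IPs. Sema3a, the ligand of Nrp1 and the A plexins, split evenly, higher in 5 and lower in 5 of 10 tumors (0.18, SE 0.16, adjusted p = 0.354). Plxnc1 in control IgG tumors 1 to 5 measured 16.3, 18.2, 12.2, 20.4 and 28.3 CPM in input and 14.2, 17.5, 11.6, 16.5 and 20.2 CPM in IP. Plxnc1 in 6-3-A6 tumors 1 to 5 measured 17.9, 15.1, 14.7, 16.9 and 27.3 CPM in input and 14.2, 11.2, 9.88, 8.05 and 23.8 CPM in IP. Plxnc1, a myeloid plexin that binds Sema7a, was lower in 10 of 10 tumors with a log2 fold change of -0.43 (SE 0.19, adjusted p = 0.0811). With the tumor as a block it reached -0.45 (adjusted p = 0.00556, edgeR), and so did Plxna3 (-0.59) and Plxna1 (-0.42). Also not called were Sema3d, Sema4g, Sema6c, Plxnb3, Unc5c and Dcc.

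The same contrast was then asked within each treatment, over 42 members. In control IgG tumors 12 members were higher in IP and 1, Neo1, was lower (8.28% and 3.10% of 14488 genes). In 6-3-A6 tumors 12 were higher and 9 lower (12.8% and 13.5%). Robo4 measured 4.57 (SE 0.53, adjusted p = 3.17e-06) in control IgG and 4.94 (SE 0.54, adjusted p = 1.08e-06) in 6-3-A6. Sema3g was at 3.91 and 4.42, Sema3f at 2.69 and 3.11, Neo1 at -1.02 and -1.24, and Sema3c at -0.95 and -1.11. Ntn4 was at -0.67 (SE 0.25, adjusted p = 0.0928) in control IgG and -1.47 (SE 0.26, adjusted p = 3.04e-04) in 6-3-A6. With the tumor as a block, control IgG gave 13 higher and 7 lower members, while calls over all genes also grew, to 1840 higher and 1409 lower of 14488. In 6-3-A6 the block gave 13 and 12 members, beside 2722 and 2832 genes. In the 3 control IgG tumors whose IP the study kept, 6 members were higher and 0 lower, beside 596 higher and 11 lower of 14707 genes.

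Of the 9 lower members in 6-3-A6, 6 lost their call without tumor 4 (Dcc, Unc5c, Unc5d, Sema3c, Sema3e and Sema5a), and Ntn4, Neo1 and Sema4b kept it. Without that tumor Sema3c was at -0.76 (adjusted p = 0.110) in place of -1.11, Sema3e at -0.52 (adjusted p = 0.200) in place of -0.87 and Sema5a at -0.77 (adjusted p = 0.0747) in place of -0.99. The call of Dcc held in 3 of 16 alternative settings. Dcc in control IgG tumors 1 to 5 measured 1.02, 1.23, 3.50, 0.575 and 0.837 CPM in input and 0.611, 0.602, 0.573, 1.03 and 1.60 CPM in IP. Dcc in 6-3-A6 tumors 1 to 5 measured 0.789, 0.248, 1.28, 15.0 and 0.614 CPM in input and 1.01, 0.735, 0.957, 0.222 and 0.982 CPM in IP. Input 4 of 6-3-A6 held 165 counts of Dcc, the netrin receptor of neurons, against 7 to 42 counts in the other inputs. Unc5c read 1.67, 0.899, 1.67, 0.690 and 0.580 CPM in control IgG inputs 1 to 5, against 1.28, 0.927, 0.688, 1.29 and 1.52 CPM in the IPs of those tumors. Unc5c read 1.24, 1.28, 1.06, 4.19 and 1.61 CPM in 6-3-A6 inputs 1 to 5, against 0.888, 0.735, 0.566, 0.444 and 0.931 CPM in their IPs. The Unc5d level was 0.754, 0.327, 1.00, 0.230 and 0.0644 CPM in control IgG inputs 1 to 5 and 0.183, 0.0927, 0.0573, 0.708 and 0.842 CPM in the IPs. For 6-3-A6, Unc5d was at 0.282, 0.142, 0.223, 7.47 and 0.845 CPM in inputs 1 to 5 and at 0.355, 0.368, 0.261, 0 and 0.103 CPM in the IPs. Unc5c and Unc5d, repulsive netrin receptors, were again highest in that input. Dcc, Unc5c and Unc5d are long genes (1097436, 369709 and 572920 bases), and the part of the raised long genes of that library was not tested. Without tumor 4 the log2 fold change of Unc5d in 6-3-A6 was -0.37 (adjusted p = 0.780, edgeR) in place of -3.14, and that of Dcc 0.33 (adjusted p = 0.697) in place of -2.35.

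Whether the IP to input difference depends on treatment is asked by the interaction of treatment and fraction. No member and 0 of 14488 genes passed (edgeR; 125 genes, 0.863%, had an unadjusted p under 0.05, and DESeq2 called 0). The interaction was largest for Plxnb3 (0.61, SE 0.63, adjusted p = 1.00) and Sema3g (0.51), and smallest for Unc5d (-2.78) and Dcc (-1.62). Plxnb3 read 0.754, 0.736, 1.00, 0.690 and 1.55 CPM in control IgG inputs 1 to 5, against 0.733, 0.973, 0.229, 1.03 and 2.04 CPM in the IPs of those tumors. Plxnb3 read 0.732, 0.319, 0.781, 0.364 and 1.15 CPM in 6-3-A6 inputs 1 to 5, against 1.13, 0.796, 1.00, 1.28 and 1.34 CPM in their IPs. Plxnb3, a plexin of glial cells, was at no more than 2.04 CPM. At an unadjusted p under 0.05 the interaction included 2 members, Ntn4 (-0.80) and Unc5c (-1.48), and the number moved with the setting. It was 0 without tumor 4 of 6-3-A6 (44 of 14604 genes), without tumor 4 of control IgG (42 of 14698 genes) and with the tumor as a block (140 of 14488 genes). It was 7 with voom (1023 of 14488 genes) and 12 in the 6 tumors with a kept IP (1166 of 14707 genes), and no gene passed after adjustment in any of these. Without tumor 4 of 6-3-A6 the interaction was -0.35 for Ntn4, -0.75 for Unc5c, -0.0473 for Unc5d, 1.03 for Dcc and 0.18 for Sema3g.

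A list of 50 other genes of these pathways gave the context downstream of the receptors. Of 43 tested, 17 were higher and 5 lower in IP, beside 19.8% and 21.4% of all genes. All but 1 of the higher genes encode intracellular mediators (16 of 31 tested), led by Crmp1 (3.52, SE 0.30, adjusted p = 4.17e-09), a collapsin response mediator of Sema3a signaling, and Srgap1 (3.45, SE 0.28, adjusted p = 2.15e-09), a GTPase-activating protein downstream of Robos. The lowest were Chl1 (-1.38, SE 0.36, adjusted p = 0.00393), an adhesion molecule in semaphorin receptor complexes, and Rgma (-1.01, SE 0.20, adjusted p = 3.90e-04), a ligand of Neogenin. The class 3 semaphorin co-receptors Nrp1 (0.29, SE 0.19, adjusted p = 0.221) and Nrp2 (0.18, SE 0.16, adjusted p = 0.355) did not pass, although Plxnd1 and Plxna2 did.

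The study's own question was what 6-3-A6 changes in tumor endothelium, and it compared 3 control IgG IPs (libraries 2, 4 and 5) with 3 6-3-A6 IPs (1, 3 and 4), kept after the other IPs had been set aside as outliers in a principal component analysis. That choice used the same values that are tested here, so the p-values of this comparison do not account for it. In these 6 libraries 8 of 40 members were lower with 6-3-A6 and none was higher at an adjusted p under 0.05, beside 2.04% of 13999 genes lower and 2.57% higher, 4.61% in all (edgeR). The 8 were 4 class 3 and class 4 semaphorins (Sema3e, Sema4a, Sema4b, Sema4d), Slit2, and the receptors Plxna3, Plxnb2 and Neo1. Their log2 fold changes ran from -1.21 (Sema3e) to -0.82 (Sema4d). The median over the 40 members was -0.34, beside -0.05 for all genes.

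Sema3e, the ligand of Plxnd1, read 45.7, 35 and 31.6 CPM in control IgG and 20.7, 15.9 and 12.8 CPM in 6-3-A6, a log2 fold change of -1.21 (SE 0.23, adjusted p = 0.0228). Slit2 read 35.2, 26.0 and 42.8 CPM in control IgG and 18.9, 16.1 and 14.1 CPM in 6-3-A6 (-1.12, SE 0.23, adjusted p = 0.0269). Neither gene overlapped between the groups in these 6 libraries, but the share of all genes without overlap was not counted. Plxna3 read 10.1, 12.7, 16.0, 11 and 12.6 CPM in control IgG inputs 1 to 5, against 5.13, 11.5, 5.16, 8.89 and 10.4 CPM in the IPs of those tumors. Plxna3 read 10.6, 12.2, 8.31, 2.00 and 9.98 CPM in 6-3-A6 inputs 1 to 5, against 6.28, 11.1, 4.53, 2.89 and 7.29 CPM in their IPs. Plxna3, a plexin of class 3 semaphorins, had a log2 fold change of -1.20 (SE 0.29, adjusted p = 0.0451) in the 6 libraries, in which its groups did not overlap. Sema4a (-1.14, SE 0.20, adjusted p = 0.0181), Sema4b (-1.10) and Sema4d (-0.82) were lower together with Plxnb2 (-1.07, SE 0.21, adjusted p = 0.0250). Neo1 read 61.5, 90.1 and 79.1 CPM in control IgG and 43.2, 42.0 and 26.7 CPM in 6-3-A6 (-1.08, SE 0.24, adjusted p = 0.0343).

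The members highest in endothelial IPs pointed the other way, and the calls of 3 of them depended on the tool. Robo4 read 121, 50.7 and 89.0 CPM in control IgG and 182, 164 and 209 CPM in 6-3-A6, with no overlap and a log2 fold change of 1.06 (SE 0.28, adjusted p = 0.0601). Sema3f (1.06, SE 0.34, adjusted p = 0.113), Sema6b (0.92, SE 0.29, adjusted p = 0.0990) and Sema6d (0.70, SE 0.28, adjusted p = 0.196) also did not overlap. Nor did lower members that were not called, such as Sema3a, Sema3b, Ntn1, Plxnc1 and Unc5c. The share of all genes without overlap was not counted, so a lack of overlap is not a test here. DESeq2 called Robo4 (adjusted p = 0.00633), Sema3f (adjusted p = 0.0259) and Sema6b (adjusted p = 0.0321) higher, as did edgeR with no filter on low counts, and edgeR as described passed none of them. Plxnd1 (0.31, SE 0.29, adjusted p = 0.626), Unc5b (0.45), Plxna2 (0.39), Sema3g (0.17), Sema6a (0.11) and Robo1 (0.12) did not pass either. Sema5a had the lowest log2 fold change of all members, -1.31 (SE 0.35, adjusted p = 0.0610), but did not pass, and neither did Ntn1 (-0.94, SE 0.25, adjusted p = 0.0601), Plxnc1 (-0.79), Sema3c (-0.73), Ntn4 (-0.61), Sema3a (-0.49), Plxnb1 (-0.31) or Slit3 (-0.32). Of the 43 partner genes tested 3 passed, beside 4.61% of all genes. Ablim1 (1.5, SE 0.24, adjusted p = 0.0178) and Srgap1 (1.19), an actin-binding protein and the Robo effector, were higher, and Cd72 (-1.24), a receptor of Sema4d on B cells, was lower.

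Markers of cell types moved with treatment in the same 6 libraries. The summed endothelial level was 1498 to 4805 CPM in control IgG and 4659 to 6029 CPM in 6-3-A6, with 17 of 17 markers positive and 6 called. The macrophage sum was 6664 to 7817 and 3401 to 3927 CPM, with 12 of 12 tested markers negative and 6 called (Itgam is listed at 0). The fibroblast sum was 1633 to 3384 and 739 to 1553 CPM, with 10 of 10 negative and 3 called. The epithelial sum was 333 to 398 and 170.3 to 253 CPM, with 7 of 7 negative and 2 called. The mean log2 level of the endothelial markers was higher by 1.16 and that of the macrophage markers (-0.95) and epithelial markers (-1.03) lower in 6-3-A6, each with an exact permutation p of 0.1, the smallest that 3 against 3 allows. The fit was repeated with the endothelial score of each library (endothelial minus the mean of macrophage, fibroblast and epithelial markers) as a term. Then 0 members and 0 genes passed (496 genes had an unadjusted p under 0.05), the log2 fold changes of all 40 members were below 0, and those of the 8 were between -2.06 and -0.31. The score and the treatment do not overlap in these libraries, so they cannot be told apart. No member passed without 6-3-A6 IP 3 or IP 4, when 9 and 161 genes did, and without control IgG 4 the members called numbered 3, beside 188 genes. Sema4a and Slit2 kept their call in 8 of 11 alternatives, and the other 6 in 5 to 7. Without control IgG 2 there were 3 higher and 3 lower members, beside 479 higher and 174 lower of 14154 genes.

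**Figure D3:**
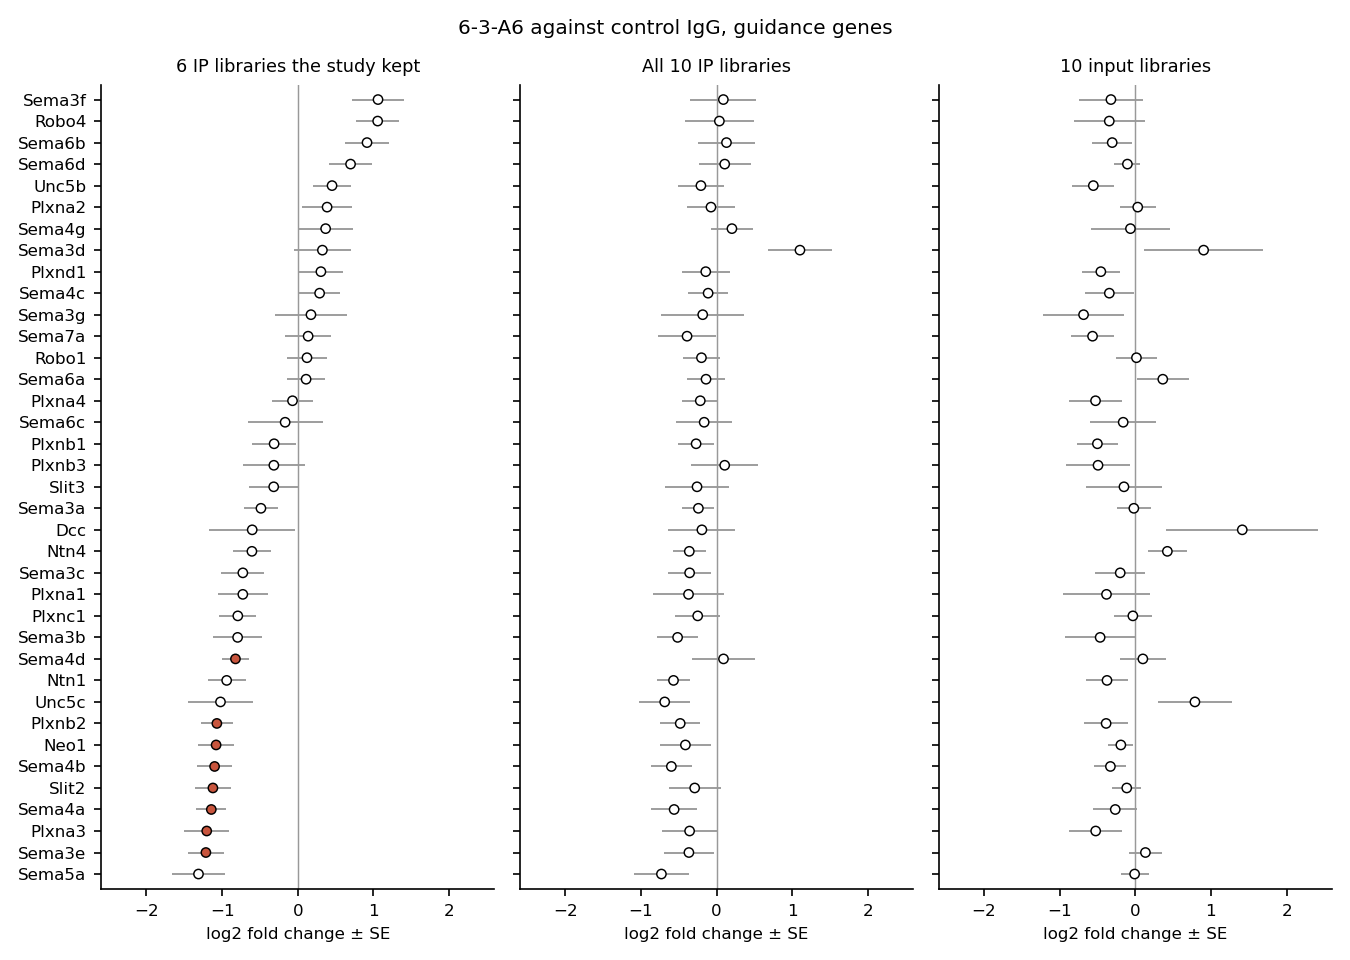
Log2 fold change of 6-3-A6 against control IgG (± SE) of 37 members tested in the 6 IP libraries that the study kept, in all 10 IP libraries and in the 10 inputs, ordered by the first. Red points have an adjusted p under 0.05: there are 8, all lower, in the first set and 0 in the others, and the first set of libraries is part of the second.

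Over all 10 IP libraries, which include those 6, no member and 0 of 13602 genes passed (edgeR; 292 genes, 2.15%, had an unadjusted p under 0.05, and DESeq2 called 0). The 8 members called in the 6 libraries had log2 fold changes of -0.36, -0.36, -0.56, -0.29, -0.60, -0.41, -0.48 and 0.09 for Sema3e, Plxna3, Sema4a, Slit2, Sema4b, Neo1, Plxnb2 and Sema4d. The sign of Sema4d rests on 6-3-A6 IP 5 (64.4 CPM), without which its log2 fold change was -0.64. Robo4 measured 0.04 (SE 0.46, adjusted p = 1.00), with overlapping groups of 50.7 to 235 CPM in control IgG and 36.8 to 209 CPM in 6-3-A6. Without 6-3-A6 IP 2 the log2 fold change of Robo4 was 0.28. Sema3d (1.1, SE 0.42, adjusted p = 1.00) and Sema4g (0.20) had the 2 largest log2 fold changes, and the 2 smallest were those of Sema5a (-0.73, SE 0.36, adjusted p = 1.00) and Unc5c (-0.68). Sema3d read 1.56, 0, 1.17, 0.518 and 0.515 CPM in control IgG inputs 1 to 5, against 0.672, 1.30, 0.516, 0.966 and 1.52 CPM in the IPs of those tumors. Sema3d read 0.901, 0.886, 0.613, 4.19 and 0.461 CPM in 6-3-A6 inputs 1 to 5, against 1.13, 1.65, 1.70, 2.11 and 4.24 CPM in their IPs. Sema3d, a secreted semaphorin, had an unadjusted p of 0.0214 (edgeR) and the other two members under 0.05 were Ntn1 (-0.57) and Sema4b (-0.60). With voom and sample quality weights 15 of 38 members had an unadjusted p under 0.05, as did 2659 of 13602 genes, and none passed after adjustment. The Sema4g level was 3.23, 3.60, 4.75, 2.76 and 2.45 CPM in control IgG inputs 1 to 5 and 2.38, 3.71, 3.44, 2.25 and 2.17 CPM in the IPs. For 6-3-A6, Sema4g was at 5.18, 3.83, 4.46, 0.182 and 2.30 CPM in inputs 1 to 5 and at 4.56, 2.39, 4.09, 2.05 and 2.95 CPM in the IPs. The endothelial marker means of the 2 groups differed by 0.12 over all IPs (exact permutation p = 0.881, n = 5 per group). Other markers differed in direction, with none called. Macrophage (12 of 12, median -0.38), fibroblast (10 of 10, -0.40) and epithelial markers (7 of 7, -0.35) were negative. Lymphoid markers were positive (5 of 5, median 0.84). Of the 38 members 29 were negative, and the part of these cell types was not tested.

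In the whole tumor homogenates no member passed the test between treatments. In input 0 of 13683 genes passed (edgeR; 180 genes, 1.32%, had an unadjusted p under 0.05, none of them a member (2 of 39 members and 714 of 13683 genes with voom), and DESeq2 called 0). Dcc and Sema3d had the 2 largest log2 fold changes, 1.41 (SE 1.01, adjusted p = 1.00) and 0.90, and both turned negative without input 4 of 6-3-A6, at -0.97 and -0.08. The 2 smallest were those of Sema3g (-0.68, SE 0.54, adjusted p = 1.00) and Sema7a (-0.56). Sema3g in input rests on 1 to 15 counts per 6-3-A6 library. Ntn4 was at 0.42 in input, or 0.0904 without input 4 of 6-3-A6, and at -0.36 in all IPs. Sema7a in input was at -0.37 without that library. Slit2 was at -0.11 in input and -0.29 in all IPs.

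Since the endothelial yield varied between IPs, the level of each member was compared with the mean log2 CPM of the 17 endothelial markers over the 10 IP libraries. Of 38 members, 9 rose with it and 1 fell at an adjusted permutation p under 0.05 over all 13582 genes (Pearson), beside 3.05% and 0.214% of genes. The 9 were Robo4, Sema6b, Sema3f, Sema6d, Plxna2, Plxnd1, Unc5a, Unc5b and Sema7a, and Neo1 fell. Robo4 followed the markers most closely (r = 0.99, rho = 0.96, adjusted permutation p = 0.0113 and 0.0873, permutation p = 2.00e-05 and 9.00e-05). Plxnd1 had r = 0.93, rho = 0.83, Unc5b r = 0.90, rho = 0.90 and Neo1 r = -0.87, rho = -0.77. Sema3g (r = 0.81, rho = 0.55) and Sema6a (r = 0.80, rho = 0.73), both higher in IP, did not pass. Slit2 had r = -0.68, rho = -0.71, Sema4d r = -0.10, rho = -0.19 and Slit3 r = -0.02, rho = -0.03. No Spearman coefficient passed after adjustment. Without the libraries farthest from the median, control IgG IP 4 and 6-3-A6 IP 2, r of the 9 members that rose was 0.96 for Robo4, 0.95 for Sema3f, 0.92 for Sema6b, 0.80 for Plxnd1, 0.79 for Sema6d, 0.77 for Unc5b, 0.67 for Plxna2, 0.63 for Sema7a and 0.56 for Unc5a. It was -0.83 for Neo1 and 0.23 for Sema3g, and 0 of 13582 genes passed over those 8 libraries. The coefficient of Sema3g rests on those 2 libraries.

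**Figure D4:**
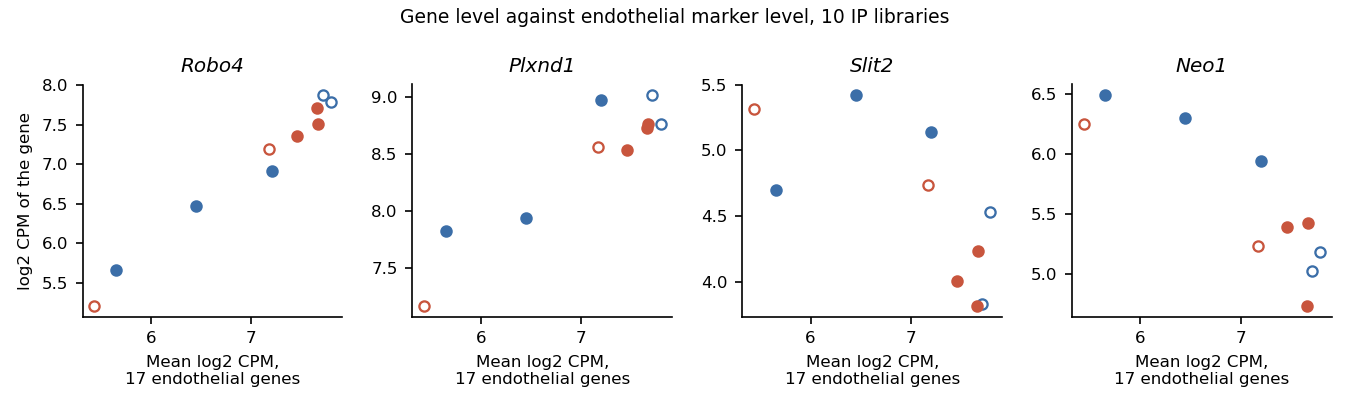
Log2 CPM of 4 members (vertical axes) against the mean log2 CPM of 17 endothelial markers in the 10 IP libraries (blue, control IgG; red, 6-3-A6; filled, kept by the study). Robo4 rises along the whole range (r = 0.99), while Neo1 falls (r = -0.87), and the 3 filled red points lie to the right of the 3 filled blue points.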

How the data were processed

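RNA of 10 tumors was sequenced as input and anti-HA IP, which gave 20 libraries in 4 groups of 5. Per the labels and the study's methods, the authors aligned the reads with STAR 2.7.4a and made the deposited counts per gene with featureCounts 2.0.1 (the processing notes also list 1.5.2). They name mm10, but 1351 of 50612 genes (2.67%) and 0 of the 46 members have their GRCm38 position in the table, and the length of every member equals its whole span, so intronic reads were counted. Use of strand is not given in the sources used here, so reads of genes that overlap cannot be told apart. A second deposited signal table holds counts that the authors divided by DESeq2 size factors, together with their own fold changes, standard errors and p-values, and it served only to learn which IPs the study kept.

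Counts were tested with edgeR 4.0.16 (quasi-likelihood, TMM, filterByExpr, Benjamini-Hochberg over all genes tested) in R 4.3.3. Every adjusted p comes from edgeR unless another tool is named. Groups followed titles and characteristics; the description field of the 6-3-A6 samples names the opposite fraction, and the endothelial markers fit the titles. IP was compared with input over all tumors, within each treatment and as an interaction, and 6-3-A6 with control IgG in the 6 IPs kept by the study, in all IPs and in input. Alternatives were DESeq2 1.42.0, RLE scaling, no filter, limma 3.58.1 (voom with quality weights), the tumor as a block, an endothelial score and leaving out each tumor. Input and IP with the same number in the titles were taken as paired, from the same animal (r of deviations 0.046 to 0.730 in control IgG, -0.063 to 0.532 in 6-3-A6). In both treatments the lowest r lay within the range between animals of different treatments (-0.321 to 0.377). Correlations used 100000 permutations (exact over 8 libraries). CPM carry TMM scaling, and log2 CPM a prior count of 2. Totals of 11881214 to 26728205 counts set a floor of 0.112 to 0.252 CPM (3 counts). Floors cover counting error only. The p-values between treatments measure the spread between tumors. Those of IP against input, over all tumors and within each treatment, and of the interaction treat the 20 libraries as independent. They leave the pairing out, which only the fit with the tumor as a block takes in.

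Values in every library are given for 18 members chosen as textbook vascular, macrophage or stromal guidance genes, for the members called in IP against input with the 3 highest and the 3 lowest log2 fold changes, and, in each comparison of treatments, for the members called or otherwise those with the 2 highest and 2 lowest. The members, lists and tests were chosen with earlier results of these data known. Exon lengths are from GENCODE M21 and promoters from RefSeq (GRCm38.p6), in which 37 of 46 members had a window. The main edgeR fit of each comparison was tested on simulated data with known changes, in which the libraries were drawn independently, without pairs. The alternative fits were not simulated.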

Additional observations from a re-analysis of the deposited data

Results flagged for a closer look

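Among 124 groups of 5 libraries examined, 13 held a value that lay far from the other 4 by Dixon's test at the 95% level on log2 CPM, which chance alone gives in about 1 group in 20. Of the 13, 8 were in 6-3-A6 input 4. That library held Robo4 at 0.364 CPM (the other 4, 4.74 to 6.87), Plxnd1 at 38.7 CPM (the other 4, 109 to 136), Unc5b at 13.7 CPM (the other 4, 38.5 to 44.4), Plxna3 at 2.00 CPM (the other 4, 8.31 to 12.2), Plxnb2 at 88.2 CPM (the other 4, 244 to 337), Sema7a at 23.2 CPM (the other 4, 57.3 to 80.8) and Sema4g at 0.182 CPM (the other 4, 2.30 to 5.18), all low, and Sema3d at 4.19 CPM (the other 4, 0.461 to 0.901), which was high. The same library had the lowest endothelial mean of all inputs (1.89 log2 CPM) and raised levels of long genes, whose part in these values was not tested.

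Among the IPs of 6-3-A6, library 2 held Robo4 at 36.8 CPM (the other 4, 147 to 209) and Plxnd1 at 144 CPM (the other 4, 371 to 436), beside a summed endothelial level of 1171 CPM (the other 4, 4659 to 6029 CPM). Library 4 held Dcc at 0.222 CPM (the other 4, 0.735 to 1.01), which is 4 counts. Library 5 held Sema4d at 64.4 CPM (the other 4, 13.8 to 17.4). In control IgG, input 1 held Slit3 at 19.4 CPM (the other 4, 4.50 to 6.30).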

How the results depend on the processing

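IP against input called 4753 to 5799 genes when each tumor was left out in turn, with 13 to 15 members higher and 5 to 14 lower. The 6 tumors with a kept IP gave 3347 genes (1606 lower) and 7 lower members. The fit with no filter on low counts gave 5453 genes (2411 lower) and 6 lower members. Within control IgG, leaving out a tumor gave 770 to 2322 genes, 8 to 13 higher and 0 to 3 lower members. The replicate block, which pairs input and IP of a tumor, gave 3249 genes and 7 lower members there. Voom gave 4957 genes (2406 lower) and 5 lower members, and DESeq2 2241 genes (736 lower) and 2 lower members. The 3 kept tumors gave 607 genes, 6 higher and 0 lower members. Within 6-3-A6 the ranges were 2654 to 3892 genes, 11 to 14 higher and 5 to 11 lower members. Voom gave 5612 genes there (2828 lower) and 15 lower members. Over the 6 kept IPs, leaving out a library gave 9 to 653 genes, 0 to 3 higher and 0 to 8 lower members, DESeq2 1251 genes and 3 higher members, no filter 1459 genes and 3 higher members, voom 1879 genes, 1 higher and 15 lower members, and the endothelial score 0 genes and 0 lower members. A replicate block could not be fitted there, since these libraries share the number 4 alone, and the numbers of the 2 treatments belong to different animals (r of deviations -0.321 to 0.377). In all IPs, in input and for the interaction each omission of a tumor gave 0 genes and 0 members. Correlations with the endothelial mean gave 0 rising and 0 falling members without the 2 farthest libraries; adjusting over all genes in place of the members was chosen after seeing the data. Among genes named, 843 of 952 values under alternatives kept their direction and their side of the threshold, 85 lost the call, 17 gained it and 7 reversed. Dcc in input reversed with voom (-0.34), with a replicate block by number (-0.24), which joins different animals and so is no real pairing, and without 6-3-A6 replicate 4 (-0.97; range over tumors left out -0.97 to 2.03), as did Sema3d in input without that replicate (-0.084 to 1.39). The interaction of Dcc reversed with voom (0.51) and without that replicate (range -2.38 to 1.03), and that of Unc5d with voom (0.30). The cause was not tested. Levels of Sema3g, Dcc, Unc5d and Robo4 in single inputs rest on few counts, which limits their ratios.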
